A study of Mus musculus with 18 samples.

Results

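Left ventricles of mouse hearts kept for 4 h in cold preservation solution were compared with those of hearts not stored, all after the same 60 min of perfusion outside the body. The study asks how storage time alters gene expression in each ventricle, and the shorter time in the left ventricle takes 6 of its 18 libraries, 3 per group. Hearts were flushed with HTK, a histidine-buffered cardioplegic solution, and held in it on ice for 0, 4 or 8 h. They were then perfused with warm Krebs buffer, a salt and glucose solution without blood cells, and both ventricles were taken for sequencing of polyadenylated RNA. The labels give the strain as C57B/L6, an age of 12 weeks and no sex, and labels and methods differ in the spelling of the strain, age, HTK volume and details of the library kit. Total estimated counts were 46236771, 27150356 and 29889176 in 0 h replicates 1 to 3 and 32816675, 30106238 and 28336115 in 4 h replicates 1 to 3. Levels are CPM (counts scaled to library size) in the order of the replicate numbers, n = 3 per group. Called, higher and lower mean an edgeR adjusted p under 0.1 over all tested genes and a fold change over 1.5. Each of the 9 left ventricular libraries in the model, those of 8 h included, was also left out in turn.

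Cold storage stops a heart's blood supply and slows its metabolism. In reperfused tissue NF-kB, a transcription factor held in the cytoplasm by IkB proteins, can turn on cytokines and endothelial adhesion molecules, while interferons act through STAT and IRF factors on a set of antiviral genes. The heart also carries a circadian clock, a feedback loop in which BMAL1 and its partners drive the Per and Cry repressors and the output factors Dbp, Tef and Hlf.

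Several libraries stood apart before any gene was tested. On the first principal component of the 6 libraries, with 50.8% of the variance, 0 h replicates 1 to 3 lay at -21.2, -38 and -42.2 and 4 h replicates 1 to 3 at 25.2, 12.3 and 64. Of the stored hearts 4 h replicate 3 was farthest from 0 h, and of the unstored hearts 0 h replicate 1 was nearest to 4 h. The 4 Y-linked genes summed to 172, 5.15 and 151 CPM at 0 h and 175, 172 and 4.69 CPM at 4 h. They were low in 0 h replicate 2 and 4 h replicate 3, 1 library of each group. Mitochondrially encoded genes held 24.1, 26 and 28.3% of counts at 0 h and 26.3, 26.4 and 24.9% at 4 h, with overlapping groups. In bulk RNA, fewer cells and less RNA per cell cannot be told apart.

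Markers of cell types were summed per library, and their part in the results was not tested. Sums are given for 13 of the 14 marker lists. Those of Schwann cell markers are left out, so the directions given here do not describe every list. Ventricular cardiomyocyte markers, 10 of 10 tested, summed to 79887, 70479.8 and 67136 CPM at 0 h and 72813, 66773 and 73820 CPM at 4 h, with Myl2 most abundant. Atrial markers, 5 of 6 tested and led by Nppa, summed to 319, 155 and 266 CPM at 0 h and 325, 253 and 233 CPM at 4 h. The groups overlapped for both. Erythrocyte markers, 4 of 5 tested and led by Hbb-bs, summed to 5.26, 6.28 and 4.56 CPM at 0 h and 85.8, 11.9 and 8.34 CPM at 4 h. All 4 h libraries exceeded the 0 h libraries, and 4 h replicate 1 was far above the rest. Neutrophil markers, 5 of 7 tested, with Ly6g at 0 in all 6 libraries, summed to 2.92, 2.73 and 2.83 CPM at 0 h and 4.81, 7.49 and 9.23 CPM at 4 h, and Csf3r was most abundant. For lymphocyte markers, 1 of 7 tested, the sums were 2.67, 1.40 and 0.881 CPM at 0 h and 14.6, 9.63 and 26.8 CPM at 4 h, mostly from Ccl5, a chemokine that cells other than lymphocytes also make. Both sums were higher in each 4 h library than in any 0 h library, and Csf3r and Ccl5 were the only markers called. Csf3r kept the call in 6 of the 9 fits that left out 1 library, lost without 0 h replicates 2 and 3 and 4 h replicate 3, with log2 fold changes of 1.47 to 1.93. Ccl5 passed in 5 of the 9 fits that left out 1 library, lost without 0 h replicates 2 and 3 and 4 h replicates 1 and 3, with log2 fold changes of 3.12 to 4.51. DESeq2 called 2 neutrophil markers, Csf3r and S100a9.

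Endothelial markers, 8 of 8 tested and led by Fabp4, summed to 1019, 1079.6 and 1428 CPM at 0 h and 1314, 1112 and 733 CPM at 4 h. The lowest value was that of 4 h replicate 3. Fibroblast markers, 6 of 6 tested and led by Gsn, summed to 1536, 1749 and 1688 CPM at 0 h and 2136, 1647 and 1616 CPM at 4 h. Macrophage markers, 8 of 8 tested and led by C1qb, summed to 142, 165 and 218 CPM at 0 h and 213, 223 and 154 CPM at 4 h. These 3 sums overlapped between groups. Smooth muscle and pericyte markers, 6 of 6 tested and led by Rgs5, summed to 705, 795 and 819.6 CPM at 0 h and 813, 736 and 628 CPM at 4 h. Endocardial markers, 3 of 3 tested and led by Vwf, summed to 87.3, 78.6 and 101 CPM at 0 h and 135, 106 and 97.7 CPM at 4 h. Platelet markers, 2 of 4 tested and led by Pf4, summed to 7.30, 8.09 and 10.7 CPM at 0 h and 13.7, 10.4 and 8.71 CPM at 4 h. Groups overlapped here too. Adipocyte markers, 3 of 4 tested and led by Cfd, gave 1.77, 5.46 and 1.60 CPM at 0 h and 2.80, 1.46 and 6.26 CPM at 4 h. Epicardial and mesothelial markers, 4 of 5 tested and led by Wt1, gave 38, 14.7 and 12.4 CPM at 0 h and 48.1, 27.2 and 26.4 CPM at 4 h, again with overlap. The 12 marker lists without a call by edgeR held 61 tested genes, 7 of them with an unadjusted p under 0.05 and 3 called by DESeq2 (Pdgfrb, Egfl7 and Lyve1). Over all 14564 tested genes, 2271 had an unadjusted p under 0.05.

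After 4 h of storage, 349 of 14564 tested genes (2.4%) were higher and 58 (0.398%) lower, and increases were also the larger changes. Median log2 fold changes were 1.55 among the higher and -0.99 among the lower genes, against -0.0044 over all tested genes. Of the higher genes, 102 were over 4-fold and 15 over 16-fold, while 3 lower genes were over 4-fold. No called gene had overlapping groups. Against the same 0 h hearts, 795 genes were higher and 183 lower at 8 h. In the right ventricle at 4 h, 890 were higher and 569 lower of the 14350 genes tested there too. Among all tested genes, every 4 h library exceeded every 0 h library for 1903 (13.1%), and every 4 h library lay below for 1613 (11.1%). Within the 4 h group, replicate 3 was highest for 180 of the 349 higher genes, replicate 1 for 132 and replicate 2 for 37. Within the 0 h group, replicate 1 was highest for 240 of these genes and lowest for 50 of the 58 lower genes.

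The numbers of calls moved with single libraries, while the called genes kept their direction in each of the 9 fits that left out 1. Without 0 h replicate 2, 14 genes were higher and 1 lower, and without 0 h replicate 3 the numbers were 41 and 2. Leaving out 4 h replicate 1 gave 72 and 6, and leaving out 4 h replicate 3 gave 78 and 7. Lower genes numbered 143 without 0 h replicate 1 and 28 without 4 h replicate 2. Without 8 h replicate 3, a library outside the comparison, 669 were higher and 166 lower. DESeq2, run on 22845 genes without the filter on low counts, called 694 higher and 219 lower, which included 348 of the 349 and all 58. From the 6 libraries alone 526 were higher and 91 lower, with the Y-linked level as a covariate 578 and 123, and at an adjusted p under 0.05 163 and 15.

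In all 9 fits that left out 1 library, 12 higher genes and 1 lower gene were called. These 13 were singled out after their values were seen. Lowest in adjusted p was Sh3pxd2b, a scaffold of actin-rich podosomes, with 8.01, 5.87 and 6.79 CPM at 0 h and 27.4, 24.7 and 28.3 CPM at 4 h. The 3 stored hearts were alike and well above 0 h, and the log2 fold change was 1.96 (edgeR adjusted p = 0.00190). Cd14, the co-receptor for bacterial lipopolysaccharide (ENSMUSG00000051439.7, chromosome 18, 36725067 to 36726798), measured 16.4, 11 and 10.7 CPM at 0 h and 50.2, 53.4 and 46.4 CPM at 4 h. Cd14 was highest in 4 h replicate 2 and lowest in 0 h replicate 3, with no overlap between the groups, and the log2 fold change was 1.97 (standard error 0.17, edgeR adjusted p = 0.00529). Il1rn, the antagonist of the interleukin-1 receptor (ENSMUSG00000026981.15, chromosome 2, 24336853 to 24351494), measured 2.02, 1.43 and 0.755 CPM at 0 h and 16.1, 17.2 and 28.7 CPM at 4 h. Il1rn levels peaked in 4 h replicate 3 and were lowest in 0 h replicate 3, the groups did not overlap, and the log2 fold change was 3.85 (standard error 0.36, edgeR adjusted p = 0.00755). Others kept were Ptprc (CD45), Lcp1 (an actin-bundling protein of leukocytes), Lcp2 (an adaptor of immune receptors) and the transcription factors Cebpd, Batf and Runx1. Ptprc stood at 6.13, 6.93 and 7.30 CPM at 0 h and 13.8, 15 and 13.1 CPM at 4 h, with no overlap and little spread in either group. Lrrc25, Ptprj and Ralgds completed the 12, and the lower gene was Per3.

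The 12 largest increases were those of Cxcl10, Csf3, Calhm6, Acod1, Foxj1, Trim30c, Lipg, Selp, Ifit1, Ptx3, Serpina3f and Oasl1, which take in a chemokine, a growth factor, a selectin and interferon-stimulated genes. Csf3, the growth factor of neutrophils (ENSMUSG00000038067.2, chromosome 11, 98701263 to 98703629), measured 0.459, 0.239 and 0.377 CPM at 0 h and 7.23, 10.9 and 20.7 CPM at 4 h. Csf3 was highest in 4 h replicate 3 and lowest in 0 h replicate 2, with no overlap between the groups, and the log2 fold change was 5.12 (standard error 0.65, edgeR adjusted p = 0.0171). Ptx3, a soluble pattern-recognition pentraxin (ENSMUSG00000027832.5, chromosome 3, 66219910 to 66225805), measured 33.4, 10.8 and 8.08 CPM at 0 h and 403, 194 and 496 CPM at 4 h. Ptx3 levels peaked in 4 h replicate 3 and were lowest in 0 h replicate 3, the groups did not overlap, and the log2 fold change was 4.38 (standard error 0.68, edgeR adjusted p = 0.0299). Foxj1, a factor of ciliated cells, was expressed at a low level, 0.125, 0.0682 and 0.0629 CPM at 0 h and 3.27, 1.66 and 2.68 CPM at 4 h. Acod1, which makes the metabolite itaconate, stood at 1.61, 0.853 and 0.818 CPM at 0 h and 13.4, 11.9 and 73.5 CPM at 4 h. In Acod1, replicate 3 was far above the other stored hearts, and the groups did not overlap in either gene. Of the 12, Cxcl10, Calhm6, Acod1, Lipg, Ifit1, Serpina3f and Oasl1 were called neither without any 0 h library nor without 4 h replicate 1 or 3. Cxcl10 was also lost without 8 h replicates 1 and 2, and Calhm6 without 8 h replicate 2. Log2 fold changes with 1 library left out were 2.79 to 5.67 for Cxcl10, 3.42 to 5.40 for Calhm6 and 3.48 to 5.29 for Acod1. Each was lowest without 4 h replicate 3. Csf3 and Trim30c kept the call in 8 of the 9 fits that left out 1 library, lost without 0 h replicate 2, with log2 fold changes of 4.60 to 5.41 for Csf3 and 4.11 to 4.72 for Trim30c. Ptx3 and Selp passed in 7 of the 9 fits that left out 1 library, lost without 0 h replicates 2 and 3, with log2 fold changes of 4.04 to 5.27 for Ptx3 and 3.94 to 4.95 for Selp. Foxj1 held its call in 5 of the 9 fits that left out 1 library, lost without 0 h replicates 2 and 3 and 4 h replicates 1 and 3, with log2 fold changes of 4.53 to 5.19.

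**Figure D1:**
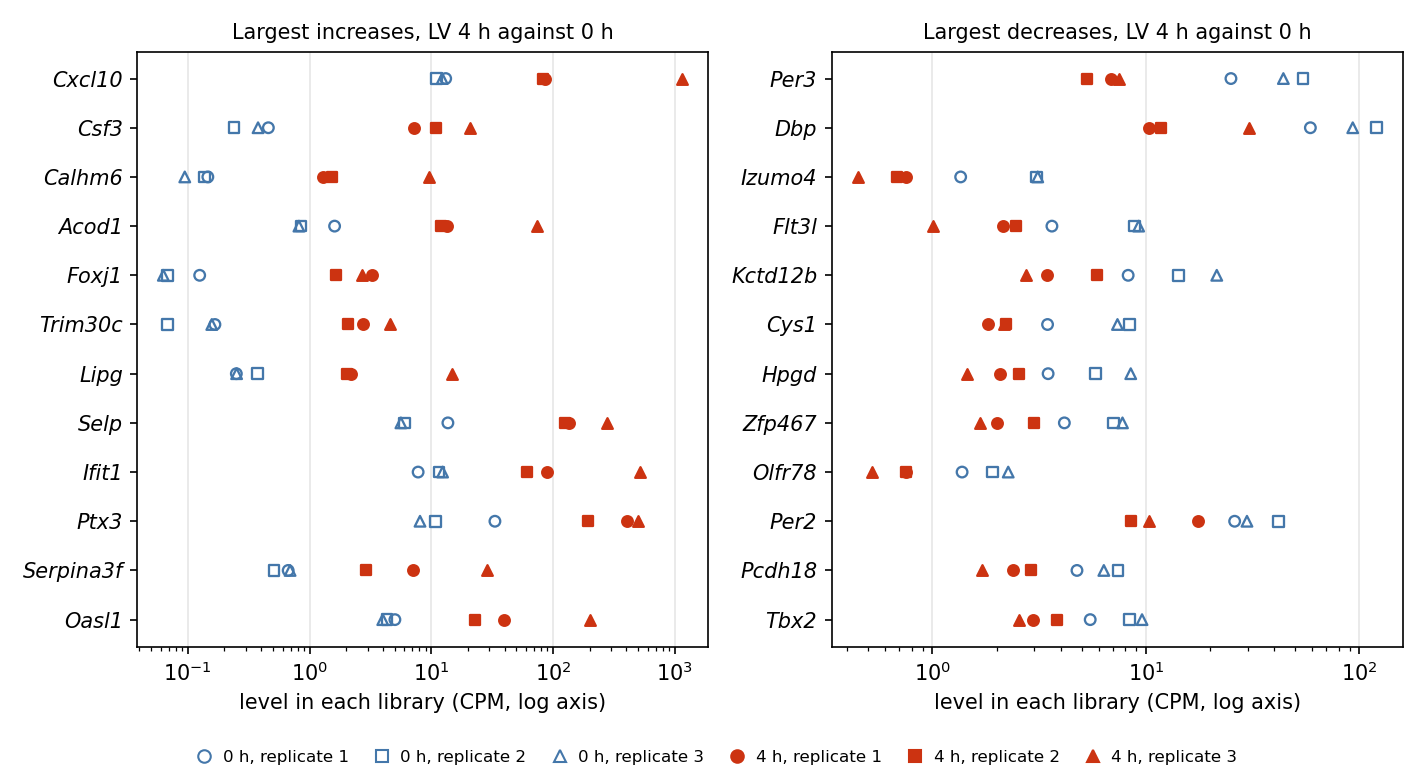
CPM in each LV library on a log axis for the 12 largest increases and 12 largest decreases, with 0 h and 4 h replicates as separate points. In Csf3 the 0 h points lie at 0.239 to 0.459 and the 4 h points at 7.23 to 20.7, while in Cxcl10 4 h replicate 3 stands at 1152 above 86.5 and 82.3.

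The 12 largest decreases were those of Per3, Dbp, Izumo4, Flt3l, Kctd12b, Cys1, Hpgd, Zfp467, Olfr78, Per2, Pcdh18 and Tbx2, with 3 clock genes among them. Flt3l, a growth factor for dendritic cells (ENSMUSG00000110206.1, chromosome 7, 45129788 to 45136432), measured 3.63, 8.87 and 9.25 CPM at 0 h and 2.14, 2.47 and 1.0 CPM at 4 h. Flt3l was highest in 0 h replicate 3 and lowest in 4 h replicate 3, with no overlap between the groups, and the log2 fold change was -1.94 (standard error 0.45, edgeR adjusted p = 0.0811). Flt3l kept the call in 2 of the 9 fits that left out 1 library, lost without 0 h replicates 2 and 3, 4 h replicates 1, 2 and 3 and 8 h replicates 1 and 2, with log2 fold changes of -1.65 to -2.27.

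Of 19 clock genes tested, 3 were higher (Arntl, Npas2 and Nfil3), 5 lower (Per3, Dbp, Per2, Tef and Hlf) and 11 not called. Over all tested genes 2.4% were higher and 0.398% lower. The list median was 0.06 (-0.08 to 0.21 with 1 library left out). The lower genes were repressors and output factors of the loop. Per3, a repressor, measured 25, 54.4 and 44.1 CPM at 0 h and 6.89, 5.27 and 7.48 CPM at 4 h. Per3 was highest in 0 h replicate 2 and lowest in 4 h replicate 2, with no overlap between the groups, and the log2 fold change was -2.65 (standard error 0.27, edgeR adjusted p = 0.00988). Dbp, a PAR bZIP factor that carries the clock's output (ENSMUSG00000059824.12, chromosome 7, 45705088 to 45710203), measured 59, 120.4 and 93.1 CPM at 0 h and 10.4, 11.8 and 30.5 CPM at 4 h. Dbp levels peaked in 0 h replicate 2 and were lowest in 4 h replicate 1, the groups did not overlap, and the log2 fold change was -2.37 (standard error 0.54, edgeR adjusted p = 0.0776). The related Hlf (ENSMUSG00000003949.16, chromosome 11, 90336536 to 90390895) measured 20.8, 31.5 and 24.6 CPM at 0 h and 11.3, 11 and 10.4 CPM at 4 h. Hlf, highest in 0 h replicate 2 and lowest in 4 h replicate 3, had groups without overlap, and the log2 fold change was -1.23 (standard error 0.17, edgeR adjusted p = 0.0227). Per3 kept the call in all 9 fits that left out 1 library, with log2 fold changes of -2.40 to -2.91. Hlf passed in 8 of the 9 fits that left out 1 library, lost without 0 h replicate 2, with log2 fold changes of -1.05 to -1.36. Dbp held its call in 5 of the 9 fits that left out 1 library, lost without 0 h replicates 2 and 3 and 4 h replicates 1 and 2, with log2 fold changes of -2.11 to -3.03.

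Among the higher clock genes, Arntl, which encodes BMAL1, measured 7.40, 2.97 and 3.43 CPM at 0 h and 19.7, 18.4 and 12.2 CPM at 4 h. Npas2, a partner of BMAL1, measured 3.0, 1.5 and 1.48 CPM at 0 h and 5.25, 5.86 and 4.88 CPM at 4 h. In both genes 0 h replicate 1 was the highest unstored heart, and the groups did not overlap. Nfil3, a repressor that competes with the PAR bZIP factors for the D-box (ENSMUSG00000056749.7, chromosome 13, 52967209 to 52981073), measured 27.2, 11.7 and 10.2 CPM at 0 h and 91.5, 57.9 and 64.7 CPM at 4 h. Nfil3 was highest in 4 h replicate 1 and lowest in 0 h replicate 3, with no overlap between the groups, and the log2 fold change was 2.12 (standard error 0.37, edgeR adjusted p = 0.0383). Arntl kept the call in 6 of the 9 fits that left out 1 library, lost without 0 h replicates 2 and 3 and 4 h replicate 1, with log2 fold changes of 1.62 to 2.39. Nfil3 passed in 5 of the 9 fits that left out 1 library, lost without 0 h replicates 2 and 3 and 4 h replicates 1 and 3, with log2 fold changes of 1.87 to 2.70. Npas2 held its call in 4 of the 9 fits that left out 1 library, lost without 0 h replicates 2 and 3 and 4 h replicates 1, 2 and 3, with log2 fold changes of 1.22 to 1.84. Clock genes called higher numbered 0 without 0 h replicate 2 or 3 or 4 h replicate 1 and 1 without 4 h replicate 3. Those called lower numbered 1 without 0 h replicate 2, 2 without 0 h replicate 3, 3 without 4 h replicate 1, 2 or 3 and 3 at an adjusted p under 0.05. Hearts stored for 8 h, read against the same 0 h hearts, had 2 clock genes higher and 6 lower, and the right ventricle at 4 h had 4 and 5. Both comparisons also had more calls over all genes, 795 higher and 183 lower at 8 h and 890 and 569 in the right ventricle, against 349 and 58. The D-box TTATGNAA, the site of PAR bZIP factors and Nfil3, occurs in Per3 at 205 and 158 bases before the start. The sequence is from RefSeq GRCm38.p6, chromosome 4, minus strand, 151044616 to 151044915.

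Per3: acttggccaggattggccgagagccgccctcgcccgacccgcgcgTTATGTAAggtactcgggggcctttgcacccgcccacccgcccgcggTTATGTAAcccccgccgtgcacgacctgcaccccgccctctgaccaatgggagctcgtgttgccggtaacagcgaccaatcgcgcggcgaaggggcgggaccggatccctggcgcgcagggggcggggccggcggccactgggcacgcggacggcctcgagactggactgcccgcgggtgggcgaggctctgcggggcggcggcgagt

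**Figure D2:**
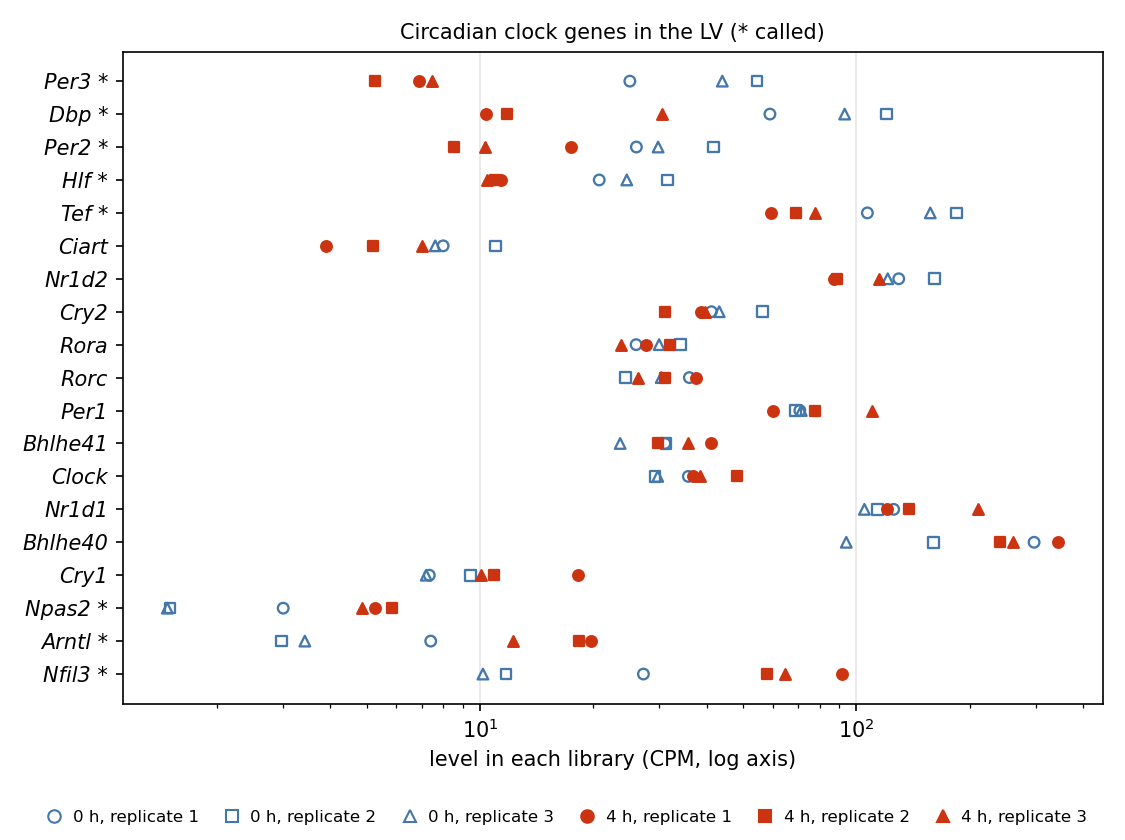
CPM in each LV library on a log axis for the 19 clock genes, 0 h and 4 h replicates as separate points and called genes marked with a star. Per3 goes from 25, 54.4 and 44.1 to 6.89, 5.27 and 7.48, and Arntl from 7.40, 2.97 and 3.43 to 19.7, 18.4 and 12.2.

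Of 27 NF-kB and TNF signaling genes tested, 13 were higher, against 2.4% of all tested genes. None was lower by edgeR or DESeq2, and all 27 had a log2 fold change above 0, with a median of 1.29. The called genes took in NF-kB subunits (Nfkb1, Nfkb2 and Relb), IkB family members (Nfkbie, Nfkbib and Bcl3), Tnip1 and Tnip3, which bind the inhibitor A20, and receptor-proximal genes (Tnfrsf1b, Traf1, Birc3 and Ripk2), beside Tnfaip2. Tnfaip2, an early TNF-induced gene (ENSMUSG00000021281.15, chromosome 12, 111442469 to 111455018), measured 125, 88.6 and 56.8 CPM at 0 h and 322, 302 and 293 CPM at 4 h. Tnfaip2 was highest in 4 h replicate 1 and lowest in 0 h replicate 3, with no overlap between the groups, and the log2 fold change was 1.76 (standard error 0.25, edgeR adjusted p = 0.0233). Tnfaip2 kept the call in 8 of the 9 fits that left out 1 library, lost without 0 h replicate 2, with log2 fold changes of 1.51 to 2.07. Higher members of the list numbered 0 without 0 h replicate 2, 1 without 0 h replicate 3, 3 without 4 h replicate 1 or 3 and 5 at an adjusted p under 0.05. Relative to each gene's 0 h mean, the list's median log2 level was 0.52, -0.09 and -0.46 in 0 h replicates 1 to 3 and 1.46, 1.27 and 1.70 in 4 h replicates 1 to 3. Replicate 1 was the highest unstored heart, and replicate 2 the lowest stored one.

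Cytokines and chemokines had 18 of 36 tested members called, all higher, against 2.4% of all tested genes, with a median of 1.86. None was lower by edgeR, and 1 was lower by DESeq2 (Cxcl12), with the Y-linked covariate and without 8 h replicate 3. The 18 were Il6, Il10, Lif, Csf2, Csf3, Ptx3, the CXC chemokines Cxcl5, Cxcl10 and Cxcl16, and Ccl2, Ccl3, Ccl4, Ccl5, Ccl7, Ccl9, Ccl11, Ccl12 and Ccl19. Il6, an inducer of the acute phase response, measured 18.4, 9.04 and 4.91 CPM at 0 h and 155, 73.3 and 135 CPM at 4 h. Il6 was highest in 4 h replicate 1 and lowest in 0 h replicate 3, with no overlap between the groups, and the log2 fold change was 3.48 (standard error 0.49, edgeR adjusted p = 0.0228). Lif, an Il6 family cytokine (ENSMUSG00000034394.14, chromosome 11, 4257557 to 4272514), measured 4.28, 1.30 and 1.32 CPM at 0 h and 25.4, 21.8 and 44 CPM at 4 h. Lif levels peaked in 4 h replicate 3 and were lowest in 0 h replicate 2, the groups did not overlap, and the log2 fold change was 3.68 (standard error 0.57, edgeR adjusted p = 0.0299). Ccl2, a monocyte chemoattractant (ENSMUSG00000035385.5, chromosome 11, 82035571 to 82037453), measured 113, 46.2 and 24.9 CPM at 0 h and 338, 250.3 and 323 CPM at 4 h. Ccl2, highest in 4 h replicate 1 and lowest in 0 h replicate 3, had groups without overlap, and the log2 fold change was 2.31 (standard error 0.50, edgeR adjusted p = 0.0679). Il6 kept the call in 8 of the 9 fits that left out 1 library, lost without 0 h replicate 2, with log2 fold changes of 3.14 to 4.12. Lif passed in 7 of the 9 fits that left out 1 library, lost without 0 h replicates 2 and 3, with log2 fold changes of 3.31 to 4.53. Ccl2 held its call in 2 of the 9 fits that left out 1 library, lost without 0 h replicates 2 and 3, 4 h replicates 1, 2 and 3 and 8 h replicates 1 and 2, with log2 fold changes of 1.93 to 3.09.

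In the cytokine list 0 h replicate 1 stood above the other unstored hearts. The median level relative to the 0 h mean was 0.72, -0.05 and -0.34 in 0 h replicates 1 to 3, against 2.06, 1.76 and 1.90 in 4 h replicates 1 to 3. Cytokines called higher numbered 0 without 0 h replicate 2, 5 without 0 h replicate 3, 6 without 4 h replicate 1, 7 without 4 h replicate 3 and 11 at an adjusted p under 0.05. Every stored heart exceeded every unstored one for 27 of the 36 genes, against 13.1% of all tested genes. At 8 h 23 were higher, and in the right ventricle at 4 h 25, where calls over all genes were also more (795 and 890, against 349). The promoter of Il6 (RefSeq GRCm38.p6, chromosome 5, plus strand, 30012864 to 30013163) opens with the AP-1 site TGANTCA. An NF-kB site, GGG and TTTCC separated by any 2 bases, begins 44 bases before the start.

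Il6: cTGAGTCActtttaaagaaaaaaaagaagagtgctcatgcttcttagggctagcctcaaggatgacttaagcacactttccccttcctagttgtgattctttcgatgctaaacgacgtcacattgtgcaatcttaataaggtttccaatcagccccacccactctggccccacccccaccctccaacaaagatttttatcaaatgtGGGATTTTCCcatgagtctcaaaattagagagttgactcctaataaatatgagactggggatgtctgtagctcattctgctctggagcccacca

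Receptors and signaling parts of cytokine pathways had 10 of 26 tested members higher, against 2.4% of all tested genes. None was lower by edgeR or DESeq2, and the median was 0.72 (0.48 without 4 h replicate 3). Besides Il1rn the higher genes were the receptor chains Il1r1, Il4ra, Il10ra, Osmr and Csf2rb and the signaling genes Jak2, Stat3, Socs1 and Socs3. Socs3, a feedback inhibitor of JAK and STAT signaling (ENSMUSG00000053113.3, chromosome 11, 117966079 to 117970047), measured 131, 170.5 and 82.2 CPM at 0 h and 521, 284 and 560 CPM at 4 h. Socs3 levels peaked in 4 h replicate 3 and were lowest in 0 h replicate 3, the groups did not overlap, and the log2 fold change was 1.83 (standard error 0.39, edgeR adjusted p = 0.0659). Pattern recognition and inflammasome genes had 5 of 37 tested members higher (Cd14, Tmem173, Irak2, Irak3 and Casp4), with a median of 0.92 and none lower by edgeR or DESeq2. Tmem173, the DNA-sensing adaptor STING (ENSMUSG00000024349.10, chromosome 18, 35733679 to 35740554), measured 11.4, 8.73 and 6.26 CPM at 0 h and 40.6, 19 and 31.4 CPM at 4 h. Tmem173 was highest in 4 h replicate 1 and lowest in 0 h replicate 3, with no overlap between the groups, and the log2 fold change was 1.78 (standard error 0.34, edgeR adjusted p = 0.0460). Tmem173 kept the call in 5 of the 9 fits that left out 1 library, lost without 0 h replicates 2 and 3 and 4 h replicates 1 and 3, with log2 fold changes of 1.51 to 2.03. Socs3 passed in 4 of the 9 fits that left out 1 library, lost without 0 h replicates 1, 2 and 3 and 4 h replicates 1 and 3, with log2 fold changes of 1.59 to 2.09. Receptor and signaling genes called higher numbered 1 without 0 h replicate 2 or 3, 3 without 4 h replicate 1 or 3 and 5 at an adjusted p under 0.05. For pattern recognition the number was 1 without 0 h replicate 2 or 3 or 4 h replicate 1 or 3, 2 without 8 h replicate 2, 13 without 8 h replicate 3, 3 with RLE size factors, 11 by DESeq2, 9 without the filter on low counts, 9 from the 6 libraries alone, 11 with the Y-linked level as a covariate, 3 without mitochondrial genes and 2 at an adjusted p under 0.05. At 8 h 16 pattern recognition genes were higher, and in the right ventricle at 4 h 14, of 795 and 890 higher genes in all.

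Interferon-stimulated genes had a median of 2.64 and differed widely among the stored hearts. All 69 tested members had a log2 fold change above 0. For 61 of them every stored heart exceeded every unstored one, against 13.1% of all tested genes. Called were Ifi205, Ifit1, Oasl1, Isg15 and Cxcl10, 5 of the 69, against 2.4% higher over all tested genes. An unadjusted p under 0.05 was found for 55, against 2271 of all 14564. The list's median level relative to the 0 h mean was -0.31, 0.12 and 0.21 in 0 h replicates 1 to 3 and 1.37, 0.95 and 3.75 in 4 h replicates 1 to 3. Without 4 h replicate 3 the median log2 fold change was 1.16 and 67 of the 69 were above 0, and with the Y-linked level as a covariate the median was 1.82. Ifit1, which binds viral RNA (ENSMUSG00000034459.8, chromosome 19, 34640871 to 34650009), measured 7.80, 11.6 and 12.4 CPM at 0 h and 89.1, 61.1 and 517 CPM at 4 h. Ifit1 was highest in 4 h replicate 3 and lowest in 0 h replicate 1, with no overlap between the groups, and the log2 fold change was 4.39 (standard error 0.99, edgeR adjusted p = 0.0775). Isg15, a ubiquitin-like modifier (ENSMUSG00000035692.6, chromosome 4, 156199424 to 156200818), measured 6.97, 5.83 and 6.64 CPM at 0 h and 42, 28.2 and 192 CPM at 4 h. Isg15 levels peaked in 4 h replicate 3 and were lowest in 0 h replicate 2, the groups did not overlap, and the log2 fold change was 3.75 (standard error 0.91, edgeR adjusted p = 0.0915). Ifi205, of the AIM2-like receptor family (ENSMUSG00000054203.7, chromosome 1, 174011998 to 174031810), measured 22.1, 11.3 and 17.8 CPM at 0 h and 123, 72.5 and 162 CPM at 4 h. Ifi205, highest in 4 h replicate 3 and lowest in 0 h replicate 2, had groups without overlap, and the log2 fold change was 2.80 (standard error 0.43, edgeR adjusted p = 0.0283). Ifi205 kept the call in 7 of the 9 fits that left out 1 library, lost without 0 h replicates 2 and 3, with log2 fold changes of 2.51 to 3.06. Ifit1 passed in 3 of the 9 fits that left out 1 library, lost without 0 h replicates 1, 2 and 3, 4 h replicates 1 and 3 and 8 h replicate 2, with log2 fold changes of 2.83 to 4.84. Isg15 held its call in 2 of the 9 fits that left out 1 library, lost without 0 h replicates 1, 2 and 3, 4 h replicates 1 and 3 and 8 h replicates 1 and 2, with log2 fold changes of 2.43 to 4.17.

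Interferon-stimulated genes called higher numbered 0 without 0 h replicate 2 or 3, 1 without 4 h replicate 1 or 3 or 8 h replicate 2, 2 without 0 h replicate 1, 3 without 8 h replicate 1, 39 without 8 h replicate 3, 3 with RLE size factors, 22 by DESeq2, 3 with length offsets, 13 without the filter on low counts, 16 from the 6 libraries alone, 39 with the Y-linked level as a covariate, 3 without mitochondrial genes and 1 at an adjusted p under 0.05. Against the same unstored hearts 47 were higher at 8 h, and in the right ventricle at 4 h 29 were, of 795 and 890 higher genes in all. The interferon-stimulated response element, GAAA repeated after any 2 bases, occurs in Isg15 (RefSeq GRCm38.p6, chromosome 4, minus strand, 156200769 to 156201068) at 78, 72 and 66 bases before the start. These 3 matches overlap. In Ifit1 (chromosome 19, plus strand, 34640639 to 34640938) matches lie on the other strand, 104 and 85 bases before the start.

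Isg15: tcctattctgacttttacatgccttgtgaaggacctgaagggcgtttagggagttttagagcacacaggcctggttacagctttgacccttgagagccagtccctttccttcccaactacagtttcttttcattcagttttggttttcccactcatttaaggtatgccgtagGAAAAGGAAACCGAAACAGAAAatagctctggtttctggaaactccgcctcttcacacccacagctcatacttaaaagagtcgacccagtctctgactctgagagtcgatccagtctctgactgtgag

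Ifit1: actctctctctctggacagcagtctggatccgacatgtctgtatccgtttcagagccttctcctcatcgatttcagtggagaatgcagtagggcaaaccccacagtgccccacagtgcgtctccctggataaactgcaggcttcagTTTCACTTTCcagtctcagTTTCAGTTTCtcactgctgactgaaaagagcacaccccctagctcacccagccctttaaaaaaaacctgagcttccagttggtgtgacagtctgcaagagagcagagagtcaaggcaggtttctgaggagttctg

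Endothelial activation genes had 9 of 21 tested members higher (Selp, Sele, Vcam1, Adamts4, Adamts9, Ptgs2, Acod1, Ch25h and Vcan), against 2.4% of all tested genes. The median was 1.63, and none was lower by edgeR or DESeq2. Sele, E-selectin (ENSMUSG00000026582.6, chromosome 1, 164048234 to 164057677), measured 90.8, 26.7 and 13.2 CPM at 0 h and 337, 258 and 418 CPM at 4 h. Sele was highest in 4 h replicate 3 and lowest in 0 h replicate 3, with no overlap between the groups, and the log2 fold change was 2.95 (standard error 0.62, edgeR adjusted p = 0.0613). Ptgs2, the inducible cyclooxygenase (ENSMUSG00000032487.8, chromosome 1, 150100031 to 150108227), measured 36.7, 19.7 and 13.5 CPM at 0 h and 118, 137 and 125 CPM at 4 h. Ptgs2 levels peaked in 4 h replicate 2 and were lowest in 0 h replicate 3, the groups did not overlap, and the log2 fold change was 2.44 (standard error 0.37, edgeR adjusted p = 0.0283). Vcam1, an adhesion molecule that leukocyte integrins bind, measured 95.3, 63.8 and 39.2 CPM at 0 h and 246, 237 and 476 CPM at 4 h. Its highest level was in 4 h replicate 3, without overlap of the groups. Ptgs2 kept the call in 8 of the 9 fits that left out 1 library, lost without 0 h replicate 2, with log2 fold changes of 2.16 to 2.93. Sele passed in 4 of the 9 fits that left out 1 library, lost without 0 h replicates 2 and 3, 4 h replicates 1 and 3 and 8 h replicate 2, with log2 fold changes of 2.52 to 4.08. Vcam1 held its call in 3 of the 9 fits that left out 1 library, lost without 0 h replicates 2 and 3, 4 h replicates 1, 2 and 3 and 8 h replicate 2, with log2 fold changes of 1.86 to 2.63. Endothelial activation genes called higher numbered 1 without 0 h replicate 2 or 3 and 3 without 4 h replicate 1 or 3. The list's median level relative to the 0 h mean was 0.51, -0.12 and -0.33 in 0 h replicates 1 to 3 and 1.69, 1.39 and 1.97 in 4 h replicates 1 to 3.

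Genes of endothelial identity had 2 of 41 tested members lower (Meox2 and Sox4), against 0.398% of all tested genes, and none higher by edgeR or DESeq2. The median was -0.11, and 12 had an unadjusted p under 0.05, against 2271 of all 14564. Meox2, a homeobox factor of vessels (ENSMUSG00000036144.6, chromosome 12, 37108540 to 37179534), measured 16, 23.8 and 21.4 CPM at 0 h and 10.7, 9.11 and 5.29 CPM at 4 h. Meox2 was highest in 0 h replicate 2 and lowest in 4 h replicate 3, with no overlap between the groups, and the log2 fold change was -1.28 (standard error 0.25, edgeR adjusted p = 0.0474). Sox4, a SoxC transcription factor, measured 43.1, 57.1 and 35 CPM at 0 h and 21.7, 25.4 and 15.8 CPM at 4 h. All stored hearts lay below all unstored ones, with 4 h replicate 3 lowest. Meox2 kept the call in 6 of the 9 fits that left out 1 library, lost without 0 h replicates 2 and 3 and 4 h replicate 2, with log2 fold changes of -1.04 to -1.50. Sox4 passed in 5 of the 9 fits that left out 1 library, lost without 0 h replicates 2 and 3 and 4 h replicates 1 and 3, with log2 fold changes of -0.90 to -1.27. Endothelial identity genes called lower numbered 0 without 0 h replicate 2 or 3, 1 without 4 h replicate 1, 2 or 3, 4 by DESeq2 and 1 at an adjusted p under 0.05. In the same list, 1 gene was higher without 8 h replicate 3 and 1 from the 6 libraries alone. Relative to the 0 h mean the list's median level was -0.12, -0.06 and 0.19 in 0 h replicates 1 to 3 and 0.10, 0.02 and -0.59 in 4 h replicates 1 to 3. Without 4 h replicate 3 the median log2 fold change was 0.04, without 4 h replicate 1 -0.24 and without 0 h replicate 3 -0.02.

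Of 16 Notch genes tested, 1 was called, the ligand Dll1, which was higher, as were 2.4% of all tested genes. The list's median was -0.20. Without 4 h replicate 3 it was -0.02, and without 4 h replicates 1 and 2 in turn -0.35 and -0.32. Every stored heart lay below every unstored one for 7 of the 16 and above for 4, against 11.1% and 13.1% of all tested genes. Lower were 2 by DESeq2 and 1 each with the Y-linked covariate, without 4 h replicate 2 and without 8 h replicate 3. Dll1 (ENSMUSG00000014773.13, chromosome 17, 15367354 to 15376872) measured 8.32, 4.57 and 4.88 CPM at 0 h and 24, 14 and 25.2 CPM at 4 h. Dll1 was highest in 4 h replicate 3 and lowest in 0 h replicate 2, with no overlap between the groups, and the log2 fold change was 1.82 (standard error 0.45, edgeR adjusted p = 0.0963). Coagulation and fibrinolysis genes had 4 of 16 higher (Tfpi2, Thbs1, Plat and Procr), with a median of 0.54. Thbs1, thrombospondin 1 (ENSMUSG00000040152.8, chromosome 2, 118111876 to 118127133), measured 275, 154 and 94.2 CPM at 0 h and 776, 497 and 570.1 CPM at 4 h. Thbs1 levels peaked in 4 h replicate 1 and were lowest in 0 h replicate 3, the groups did not overlap, and the log2 fold change was 1.82 (standard error 0.36, edgeR adjusted p = 0.0508). Thbs1 kept the call in 5 of the 9 fits that left out 1 library, lost without 0 h replicates 2 and 3 and 4 h replicates 1 and 3, with log2 fold changes of 1.52 to 2.31. Dll1 passed in 3 of the 9 fits that left out 1 library, lost without 0 h replicates 2 and 3, 4 h replicates 1, 2 and 3 and 8 h replicate 1, with log2 fold changes of 1.67 to 2.16. Notch genes called higher numbered 0 without 0 h replicate 2 or 3 or 4 h replicate 1, 2 or 3 or 8 h replicate 1, 0 with RLE size factors, 0 without mitochondrial genes and 0 at an adjusted p under 0.05. Coagulation genes called higher numbered 0 without 0 h replicate 2 or 3 or 4 h replicate 1 or 3 and 1 at an adjusted p under 0.05.

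Immediate-early genes were mostly above 0 h without passing the test. Of 30 tested, 28 had a log2 fold change above 0 and 19 an unadjusted p under 0.05, against 2271 of all 14564. The median was 0.86, and 1 was called, against 2.4% higher over all tested genes. That gene was the growth regulator Myc (ENSMUSG00000022346.15, chromosome 15, 61985391 to 61990374). Myc measured 37.1, 25.1 and 12.6 CPM at 0 h and 102, 67.8 and 68.8 CPM at 4 h. Myc was highest in 4 h replicate 1 and lowest in 0 h replicate 3, with no overlap between the groups, and the log2 fold change was 1.67 (standard error 0.38, edgeR adjusted p = 0.0774). Myc kept the call in 2 of the 9 fits that left out 1 library, lost without 0 h replicates 2 and 3, 4 h replicates 1, 2 and 3 and 8 h replicates 1 and 2, with log2 fold changes of 1.35 to 2.08. The unstored hearts differed among themselves, with list medians relative to their mean of 0.60, -0.04 and -0.56 in replicates 1 to 3, against 1.07, 0.70 and 1.05 at 4 h. Immediate-early genes called higher numbered 0 without 0 h replicate 2 or 3 or 4 h replicate 1, 2 or 3 or 8 h replicate 2, 8 without 0 h replicate 1, 13 without 8 h replicate 3, 9 by DESeq2, 2 without the filter on low counts, 8 from the 6 libraries alone, 3 with the Y-linked level as a covariate and 0 at an adjusted p under 0.05. In the right ventricle at 4 h 24 were higher, of 890 in all, and in the left at 8 h 1 was lower, of 183.

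Feedback inhibitors of MAP kinase signaling had 3 of 16 tested members higher (Dusp6, Dusp10 and Spred1), against 2.4% of all tested genes. The median was 0.60, and none was lower by edgeR or DESeq2. Dusp6, a phosphatase specific for ERK (ENSMUSG00000019960.8, chromosome 10, 99263231 to 99267489), measured 28.2, 19.4 and 33.7 CPM at 0 h and 85.2, 71 and 76.4 CPM at 4 h. Dusp6 was highest in 4 h replicate 1 and lowest in 0 h replicate 2, with no overlap between the groups, and the log2 fold change was 1.52 (standard error 0.22, edgeR adjusted p = 0.0262). Dusp6 kept the call in 8 of the 9 fits that left out 1 library, lost without 0 h replicate 2, with log2 fold changes of 1.33 to 1.70. MAP kinase feedback genes called higher numbered 0 without 0 h replicate 2, 1 without 0 h replicate 3 or 4 h replicate 1 or 3, 5 without 0 h replicate 1 or 8 h replicate 3 and 5 by DESeq2. Whether the left ventricle's change from 0 h to 4 h differed from the right's was tested over 15093 genes in all 18 libraries. With libraries unpaired, 0 genes differed in either direction by edgeR, 158 had an unadjusted p under 0.05, and DESeq2 also gave 0. In an alternative, ventricles with the same replicate number were paired as 1 heart, though the labels do not say what the numbers mean. There 40 genes (0.265%) had a smaller signed log2 change in the left ventricle and 6 (0.0398%) a larger one. Of these 46, 12 were in a list and 2 were also called in the left ventricle, Casp4 and Ch25h.

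Heat shock genes had 2 of 22 tested members higher, the small chaperone Hspb1 and the cytosolic chaperone Hsp90aa1, against 2.4% of all tested genes. The median was 0.49. For 12 of the 22 every stored heart exceeded every unstored one, against 13.1% of all tested genes. Hspb1 (ENSMUSG00000004951.10, chromosome 5, 135887919 to 135889563) measured 502, 326 and 295 CPM at 0 h and 839.8, 754 and 832 CPM at 4 h. Hspb1 was highest in 4 h replicate 1 and lowest in 0 h replicate 3, with no overlap between the groups, and the log2 fold change was 1.11 (standard error 0.25, edgeR adjusted p = 0.0775). Hsp90aa1 (ENSMUSG00000021270.13, chromosome 12, 110690605 to 110702728) measured 319.8, 178 and 152 CPM at 0 h and 703, 601 and 579.9 CPM at 4 h. Hsp90aa1 levels peaked in 4 h replicate 1 and were lowest in 0 h replicate 3, the groups did not overlap, and the log2 fold change was 1.54 (standard error 0.37, edgeR adjusted p = 0.0904). Hspb1 kept the call in 3 of the 9 fits that left out 1 library, lost without 0 h replicates 2 and 3, 4 h replicates 1, 2 and 3 and 8 h replicate 1, with log2 fold changes of 0.96 to 1.38. Hsp90aa1 passed in 2 of the 9 fits that left out 1 library, lost without 0 h replicates 2 and 3, 4 h replicates 1, 2 and 3 and 8 h replicates 1 and 2, with log2 fold changes of 1.33 to 1.93. Heat shock genes called higher numbered 0 without 0 h replicate 2 or 3 or 4 h replicate 1, 2 or 3 or 8 h replicate 1, 1 without 8 h replicate 2, 7 without 0 h replicate 1 or 8 h replicate 3, 1 with RLE size factors, 5 by DESeq2, 0 with length offsets, 5 without the filter on low counts, 6 from the 6 libraries alone, 6 with the Y-linked level as a covariate, 1 without mitochondrial genes and 0 at an adjusted p under 0.05. The promoter of Hspb1 (RefSeq GRCm38.p6, chromosome 5, plus strand, 135887669 to 135887968) holds the heat shock element GAANNTTC at 117 and 97 bases before the start.

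Hspb1: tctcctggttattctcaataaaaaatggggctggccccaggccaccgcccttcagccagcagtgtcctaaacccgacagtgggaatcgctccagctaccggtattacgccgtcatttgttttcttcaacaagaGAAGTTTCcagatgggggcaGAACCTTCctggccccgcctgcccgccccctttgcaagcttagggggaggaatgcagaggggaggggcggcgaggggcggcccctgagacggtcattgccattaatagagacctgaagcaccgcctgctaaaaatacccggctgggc

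Cold-inducible RNA-binding genes (6 tested) had no call by edgeR or DESeq2, 1 unadjusted p under 0.05 and a median of -0.07 (-0.13 to -0.05 with 1 library left out). The unfolded protein and integrated stress response list (24 tested, median 0.29) had no call by edgeR, 6 genes at an unadjusted p under 0.05 and 2 called by DESeq2. In that list the median was 0.15 without 0 h replicate 3, and 3 genes were higher without 0 h replicate 1 and 1 with the Y-linked level as a covariate. NRF2 targets and metallothioneins had 5 of 22 higher (Txnrd1, Hmox1, Mt2, Slc7a11 and Gclc), against 2.4% of all tested genes, with a median of 0.28. Hmox1, which degrades heme (ENSMUSG00000005413.8, chromosome 8, 75093621 to 75100589), measured 16.3, 24.7 and 13.2 CPM at 0 h and 108, 62.9 and 69.1 CPM at 4 h. Hmox1 was highest in 4 h replicate 1 and lowest in 0 h replicate 3, with no overlap between the groups, and the log2 fold change was 2.15 (standard error 0.43, edgeR adjusted p = 0.0526). In the hypoxia and glycolysis list 2 of 28 were higher, the vasodilator gene Adm and Pfkfb3, and the median was 0.10 (0.03 to 0.18 with 1 library left out). Pfkfb3, an activator of glycolysis (ENSMUSG00000026773.19, chromosome 2, 11471433 to 11554077), measured 44.4, 30.9 and 20.8 CPM at 0 h and 171, 140.5 and 398 CPM at 4 h. Pfkfb3, highest in 4 h replicate 3 and lowest in 0 h replicate 3, had groups without overlap, and the log2 fold change was 2.88 (standard error 0.54, edgeR adjusted p = 0.0459). Hmox1 and Pfkfb3 kept the call in 5 of the 9 fits that left out 1 library, lost without 0 h replicates 2 and 3 and 4 h replicates 1 and 3, with log2 fold changes of 1.87 to 2.43 for Hmox1 and 2.27 to 3.19 for Pfkfb3. NRF2 and metallothionein genes called higher numbered 0 without 0 h replicate 2 or 3 or 4 h replicate 1 or 3, 2 without 0 h replicate 1, 3 without 4 h replicate 2, 3 with length offsets and 1 at an adjusted p under 0.05. Hypoxia and glycolysis genes called higher numbered 0 without 0 h replicate 2 or 3 or 4 h replicate 1 or 3.

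Cell death genes had 3 of 31 tested members higher (Fas, Bcl2a1b and Casp4), against 2.4% of all tested genes. The median was 0.40 (0.25 without 4 h replicate 3). Fas, a death receptor (ENSMUSG00000024778.13, chromosome 19, 34290666 to 34327772), measured 12.3, 12.4 and 12.2 CPM at 0 h and 38.4, 28.4 and 57.5 CPM at 4 h. Fas levels peaked in 4 h replicate 3 and were lowest in 0 h replicate 3, the groups did not overlap, and the log2 fold change was 1.75 (standard error 0.41, edgeR adjusted p = 0.0822). Fas kept the call in 4 of the 9 fits that left out 1 library, lost without 0 h replicates 1, 2 and 3 and 4 h replicates 1 and 3, with log2 fold changes of 1.43 to 1.96. Cell death genes called higher numbered 0 without 0 h replicate 2 or 3 or 4 h replicate 1 or 3, 1 without 8 h replicate 2, 7 without 8 h replicate 3, 0 with RLE size factors, 6 by DESeq2, 1 with length offsets, 5 from the 6 libraries alone, 5 with the Y-linked level as a covariate, 1 without mitochondrial genes and 0 at an adjusted p under 0.05. Called lower was 1 by DESeq2 and 1 without 8 h replicate 3.

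Contractile and electrical genes had 2 calls. Of 28 sarcomere genes tested 1 was lower, Lmod2, which elongates thin filaments (ENSMUSG00000029683.7, chromosome 6, 24597762 to 24605414), and the median was 0.03 (-0.02 to 0.07 with 1 library left out). Lmod2 measured 1034, 913 and 729.9 CPM at 0 h and 528, 584 and 589 CPM at 4 h. Lmod2 was highest in 0 h replicate 1 and lowest in 4 h replicate 1, with no overlap between the groups, and the log2 fold change was -0.65 (standard error 0.15, edgeR adjusted p = 0.0846). Of 24 ion channel genes tested 1 was higher, the voltage-gated potassium channel Kcna5 (ENSMUSG00000045534.4, chromosome 6, 126532551 to 126535412), with a median of -0.12 (-0.22 to -0.06 with 1 library left out). Kcna5 measured 16.6, 13.5 and 16.5 CPM at 0 h and 21.1, 34.2 and 40.1 CPM at 4 h. Kcna5 levels peaked in 4 h replicate 3 and were lowest in 0 h replicate 2, the groups did not overlap, and the log2 fold change was 1.03 (standard error 0.22, edgeR adjusted p = 0.0652). Kcna5 kept the call in 5 of the 9 fits that left out 1 library, lost without 0 h replicates 2 and 3 and 4 h replicates 2 and 3, with log2 fold changes of 0.82 to 1.25. Lmod2 passed in 2 of the 9 fits that left out 1 library, lost without 0 h replicates 1, 2 and 3, 4 h replicates 1, 2 and 3 and 8 h replicate 1, with log2 fold changes of -0.53 to -0.78. At an adjusted p under 0.05 neither list had a call, and 1 sarcomere gene was higher without 0 h replicate 1. Over all tested genes 2.4% were higher and 0.398% lower. Without 8 h replicate 3, 2 ion channel genes were higher, and with the Y-linked covariate 1 was lower.

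Without a call by edgeR were calcium handling (24 tested, median -0.0024), natriuretic and fetal genes (14, 0.02), fatty acid oxidation (31, 0.05) and nuclear-encoded oxidative phosphorylation (36, 0.05). The same held for mitochondrially encoded genes (13, 0.08), ribosomal proteins (50, 0.19) and the proteasome (31, 0.05). With 1 library left out, medians ranged from -0.07 to 0.07 for calcium handling, 0.01 to 0.18 for natriuretic and fetal genes, -0.04 to 0.09 for fatty acid oxidation and -0.02 to 0.13 for oxidative phosphorylation. For mitochondrially encoded genes they ranged from -0.0045 to 0.20, for ribosomal proteins from 0.13 to 0.32 and for the proteasome from -0.01 to 0.10. With the cold-inducible and stress response lists, these 9 lists held 229 tested genes, of which 12 had an unadjusted p under 0.05 (2271 of all 14564) and DESeq2 called 3, Ddit4, Atp2b4 and Asns. In the calcium list 1 gene was higher without 8 h replicate 3, from the 6 libraries alone, with the Y-linked covariate and by DESeq2. All 50 ribosomal protein genes had a log2 fold change above 0, but 46 without 0 h replicate 2 or 4 h replicate 1 and 49 without 4 h replicate 3. Every stored heart exceeded every unstored one for 3 of the 50, against 13.1% of all tested genes.

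Among collagen and matrix genes 4 of 25 tested were higher (Col4a1, Col4a2, Lox and Tnc), against 2.4% of all tested genes. The median was 0.38. Col4a1, a chain of basement membrane collagen (ENSMUSG00000031502.11, chromosome 8, 11198423 to 11312826), measured 499, 427 and 436 CPM at 0 h and 760, 804 and 771 CPM at 4 h. Col4a1 was highest in 4 h replicate 2 and lowest in 0 h replicate 2, with no overlap between the groups, and the log2 fold change was 0.78 (standard error 0.15, edgeR adjusted p = 0.0466). Matrix proteases and their inhibitors had 5 of 18 higher (Timp1, Mmp14, Mmp3, Adamts4 and Adamts9), with a median of 0.70. Timp1, an inhibitor of metalloproteinases (ENSMUSG00000001131.11, chromosome X, 20870166 to 20874735), measured 3.11, 2.29 and 1.79 CPM at 0 h and 30.5, 13.1 and 23.5 CPM at 4 h. Timp1 levels peaked in 4 h replicate 1 and were lowest in 0 h replicate 3, the groups did not overlap, and the log2 fold change was 3.21 (standard error 0.46, edgeR adjusted p = 0.0239). Timp1 kept the call in 7 of the 9 fits that left out 1 library, lost without 0 h replicates 2 and 3, with log2 fold changes of 2.91 to 3.48. Col4a1 passed in 4 of the 9 fits that left out 1 library, lost without 0 h replicates 2 and 3 and 4 h replicates 1, 2 and 3, with log2 fold changes of 0.74 to 0.85. Collagen and matrix genes called higher numbered 0 without 0 h replicate 2 or 3 or 4 h replicate 1, 1 without 4 h replicate 2 or 3 and 2 at an adjusted p under 0.05. Protease list genes called higher numbered 0 without 0 h replicate 2, 1 without 0 h replicate 3 and 2 without 4 h replicate 1 or 3.

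Among 11 genes whose proteins were assayed in stored hearts, Il6, Ccl2 and Il10 were higher, against 2.4% of all tested genes. The median was 1.19. Those genes were picked in work on hearts of the same kind, so the count is not independent. Il10, an anti-inflammatory cytokine (ENSMUSG00000016529.5, chromosome 1, 131019845 to 131024974), was low in level, at 0.229, 0.102 and 0.0944 CPM at 0 h and 1.45, 1.17 and 0.410 CPM at 4 h. Il10 was highest in 4 h replicate 1 and lowest in 0 h replicate 3, with no overlap between the groups, and the log2 fold change was 2.73 (standard error 0.60, edgeR adjusted p = 0.0718). Il10 kept the call in 4 of the 9 fits that left out 1 library, lost without 0 h replicates 2 and 3, 4 h replicates 1 and 2 and 8 h replicate 1, with log2 fold changes of 2.38 to 3.31. Genes of assayed proteins called higher numbered 0 without 0 h replicate 2, 1 without 0 h replicate 3 or 4 h replicate 1 or 8 h replicate 1, 5 without 0 h replicate 1 or 8 h replicate 3, 5 by DESeq2 and 1 at an adjusted p under 0.05. Over all 30 pathway lists 756 genes were tested, of which 90 were higher and 8 lower. The other 259 higher and 50 lower genes were in no list.

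**Figure D3:**
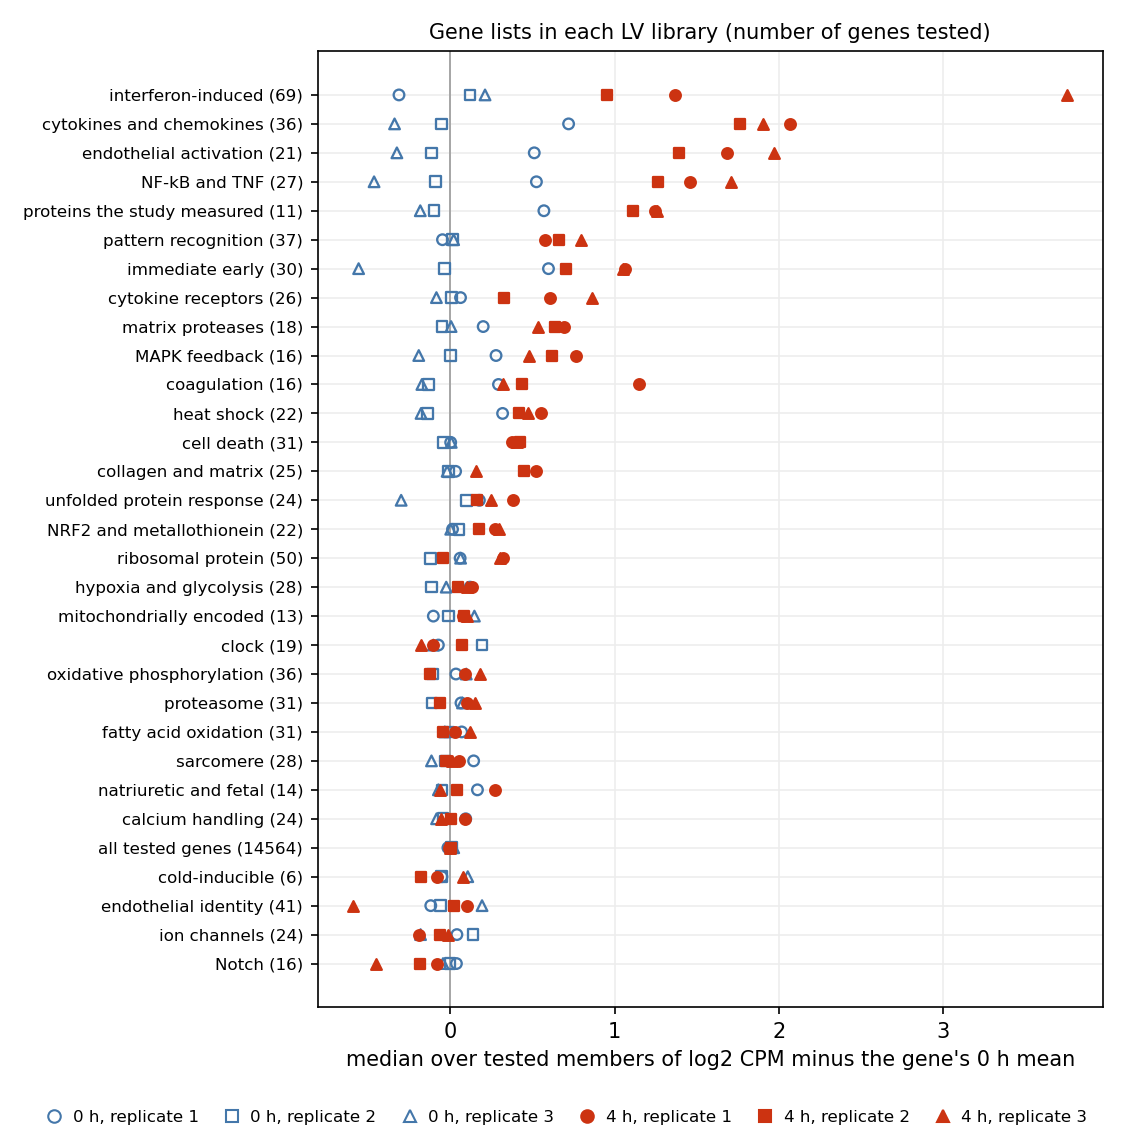
Median over the genes of each list, and over all tested genes, of the log2 CPM in a library minus the gene's mean over the 0 h libraries, with 0 h and 4 h replicates as separate points. For interferon-induced genes 4 h replicate 3 stands at 3.75 against 1.37 and 0.95, while for cytokines and chemokines the 4 h points lie at 2.06, 1.76 and 1.90.

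Promoters of 300 bases, 250 before and 50 after the start, could be matched by symbol for 260 of the 349 higher, 41 of the 58 lower and 10912 tested genes, from 32851 promoters of 27025 genes in RefSeq GRCm38.p6. A match on either strand describes the sequence and shows no binding. The AP-1 site was present in 39 of the higher genes (15%) and 2 of the lower, against 6.49% of tested genes and 8.97% of all. The NF-kB site was in 12 of the higher genes (4.62%) and 0 of the lower, against 1.99% of tested and 1.89% of all. It was in 6 of 24 cytokine and 5 of 20 NF-kB list promoters. The interferon response element was in 16 of the higher genes (6.15%) and 2 of the lower, against 4.0% of tested and 3.99% of all, and in 29 of 53 interferon list promoters. D-boxes were in 7 of the higher and 1 of the lower genes, 2.67% of tested and 3.99% of all. They were in 2 of 16 clock promoters. The E-box CACGTG, bound by BMAL1 and its partners, was in 33 of the higher and 3 of the lower genes, 11.3% of tested and 8.09% of all, and in 5 of 16 clock promoters. The heat shock element was in 22 of the higher and 3 of the lower genes, 7.16% of tested and 9.04% of all, and in 10 of 17 heat shock list promoters.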

How the data were processed

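The LV libraries at 4 h and 0 h come from 18 libraries of LV and RV. The authors deposited 1 Kallisto table per library, made with default settings. Per the file headers it gives the estimated count (expected counts) of each transcript, not normalized between libraries. The deposited tables also hold TPM, scaled by the authors within a library and used here only to compare levels between genes of a list, and transcript length and effective length, used only as offsets. The read strand was not used, so antisense or overlapping transcription and close paralogs cannot be told apart.

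Of 111462 transcripts, 1259 had no gene, and the counts of the rest were summed per gene and rounded. Genes passing filterByExpr were scaled by TMM and entered edgeR 4.0.16 (quasi-likelihood, R 4.3.3, limma 3.58.1) in 1 model of the 9 LV libraries, with adjustment by Benjamini and Hochberg over all tested genes. The procedure was also tested on simulated data. Alternatives, 19 in all, were DESeq2 1.42.0, RLE size factors, length offsets, no filter, the 6 libraries alone, a Y-linked covariate, replicate numbers as a block, no mitochondrial genes, other thresholds and each of the 9 libraries left out. A group that then keeps 2 libraries is assumed to vary like the others. Deviations from group means of LV and RV libraries with the same number correlated across genes, with r of 0.54, 0.33 and 0.46 at 0 h and 0.52, 0.47 and 0.70 at 4 h. Since all exceeded 0.1, a number was taken as 1 heart in an alternative of the LV against RV test. Of the unlike numbers, LV replicate 1 and RV replicate 2 at 4 h also exceeded 0.1, with r of 0.11. Python 3.11.15, pandas 2.3.3, numpy 2.4.6 and matplotlib 3.10.9 made summaries and plots.

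Named genes are the 12 largest increases and 12 largest decreases among called protein-coding genes with a mean of at least 1 CPM and groups that do not overlap, and of each list the first 2 members, up to 4 with the smallest p and the most abundant. Added to these are genes of assayed proteins, the first 2 and most abundant of each marker list, and 4 Y-linked genes. Other genes are named by call alone or as chosen after their values were seen. Lists and members were chosen with earlier results of these data known, so lists are described by counts and medians and not tested. The 30 pathway lists cover the clock, immediate-early genes, MAP kinase feedback, NF-kB and TNF, cytokines, cytokine receptors, pattern recognition, interferon, endothelial activation and identity, Notch, coagulation, heat shock, cold-inducible genes, unfolded protein response, NRF2, hypoxia, fatty acid oxidation, cell death, sarcomere, calcium handling, ion channels, natriuretic genes, oxidative phosphorylation, mitochondrially encoded genes, ribosome, proteasome, collagen, matrix proteases and assayed proteins. The 14 marker lists cover cell types of heart and blood. Promoter sequence is from RefSeq.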

Additional observations from a re-analysis of the deposited data

Results flagged for a closer look

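With the ventricles of a heart paired in the model, the log2 change from 0 h to 4 h differed between left and right ventricle by edgeR. It was smaller in the left (less positive or more negative) for 40 genes and larger for 6. Without pairing, edgeR gave 0 in both directions, with 158 genes at an unadjusted p under 0.05, and DESeq2 gave 0. Among the 40, 29 were called higher in the right ventricle. The pairing rests on replicate numbers, whose meaning the labels do not give.

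List members that differed included, with the left minus the right change on the log2 scale, the urokinase receptor Plaur (-1.13), the immediate-early factor Egr3 (-1.53), the endothelial factor Sox7 (-0.70), the muropeptide sensor Nod2 (-0.97), the stress-induced Sesn2 (-0.96) and the phosphatase Dusp8 (-0.60). Others were the necroptosis kinase Ripk3 (-1.03), the caspase Casp4 (-0.77), the sulfiredoxin Srxn1 (-0.69) and the cholesterol hydroxylase Ch25h (-1.55). The difference was positive for the Notch target Hey1 (1.16). Log2 fold changes of Ch25h were 1.98 in the left and 3.58 in the right ventricle. Those of Hey1 were -0.75 in the left and -1.91 in the right ventricle. No explanation was tested.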

How the results depend on the processing

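No called gene given with a fold change from all 9 libraries reversed, which groups without overlap left hardly possible. Over 37 such genes and 17 alternatives, 488 of 629 values kept the call and 141 lost it, 131 of these with 1 library left out and 10 with another alternative. These leave out the thresholds, and at an adjusted p under 0.05 17 of the genes lost the call.

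Counts moved more. Total calls were 349 higher and 58 lower, while DESeq2, on 22845 genes without the filter on low counts, gave 694 and 219. The 6 libraries alone gave 526 and 91, replicate numbers as a block 562 and 100 and the Y-linked covariate 578 and 123. An adjusted p under 0.05 gave 163 and 15. With 1 library left out, higher genes ranged from 14 to 669 and lower genes from 1 to 166. Called members of each list, LV 4 h against 0 h, numbered 98 in all, against 167 by DESeq2, 161 with the Y-linked covariate, 47 at an adjusted p under 0.05 and 4 to 177 with 1 library left out. With replicate numbers as a block, higher members numbered 26 of 69 interferon-stimulated genes, with a median of 1.84, and 10 of 37 pattern recognition genes. They numbered 4 for heat shock, 3 for immediate-early genes, 2 for the stress response and 1 for calcium handling. In the Notch list 1 gene was then lower, and in cytokine receptors and signaling 9 were higher, against 10 without the block. Called named genes, LV 4 h against 0 h, numbered 83 and ranged from 4 to 102. The LV and RV test gave 6 larger and 40 smaller changes with hearts paired, against 0 unpaired. The cause was not tested.

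Equal replicate numbers of 0 h and 4 h LV correlated with r of 0.26, 0.042 and 0.080. With 3 libraries per group, a gene that missed the threshold is not shown to be level between groups.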

Other observations

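Some called genes are given with values from the remaining libraries, side by side, and 8 h was not tested against 4 h. The 4 h change in left against right ventricle was tested over all genes. Unpaired it gave 0 genes, and neither Kcna5 nor Lmod2 was among the 46 called with pairing. Kcna5 measured 42.6, 54 and 47.4 CPM at 8 h in the left ventricle, with a log2 fold change of 1.63 against 0 h, and its log2 fold change at 4 h in the right ventricle was 0.05. Lmod2 measured 373, 454 and 361 CPM at 8 h, with a log2 fold change of -1.17, and that at 4 h in the right ventricle was -0.14. Dusp10, called at 4 h, measured 8.13, 8.56 and 6.61 CPM at 0 h, 23.9, 23.1 and 15.4 CPM at 4 h and 5.24, 5.0 and 10.7 CPM at 8 h. At 8 h its log2 fold change was -0.17. Kcna5 held the 4 h call in 5 of the 9 fits that left out 1 library, lost without 0 h replicates 2 and 3 and 4 h replicates 2 and 3, with log2 fold changes of 0.82 to 1.25. Dusp10 passed in 4 of the 9 fits that left out 1 library, lost without 0 h replicates 2 and 3 and 4 h replicates 1, 2 and 3, with log2 fold changes of 1.31 to 1.59. Lmod2 held its call in 2 of the 9 fits that left out 1 library, lost without 0 h replicates 1, 2 and 3, 4 h replicates 1, 2 and 3 and 8 h replicate 1, with log2 fold changes of -0.53 to -0.78.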
